A study of Mus musculus with 12 samples.

Results

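Antigen presentation was followed through 10 of the 44345 genes in the read count table, in sciatic dorsal root ganglia (DRG), the ganglia that hold the cell bodies of sensory neurons. The 10 genes were taken by name. H2-Aa, H2-Ab1 and H2-Eb1 encode chains of class II molecules of the major histocompatibility complex (MHC), Cd74 their invariant chain and Ciita the transactivator of class II genes. H2-K1 and H2-D1 encode class I heavy chains, B2m the class I light chain, Tap1 a subunit of the peptide transporter and Nlrc5 the transactivator of class I genes. All 10 passed the filter on low counts and were tested among 16238 genes.

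Whole L4-L6 DRG of C57BL/6 mice aged 5 to 8 weeks had been sequenced in 4 groups of 3 samples, and each sample pooled the ganglia of 2 mice. Mice spent 10 days in standard housing (SH) or in an enriched environment (EE) and then underwent sham surgery or sciatic nerve axotomy (SNA), which cuts the axons of the DRG neurons in the nerve. DRG were taken 24 h later, giving the control group SH Sham, SH SNA, the EE Sham group and EE + SNA. The study compared the groups to learn how EE and nerve injury, alone and combined, alter gene expression in DRG. The study takes EE Sham from an earlier dataset and the labels name no batch, so that housing and dataset cannot be told apart where EE Sham is compared. Counted reads ranged from 11343579 to 22871460 per sample. As a check of the labels, 6 of 6 injury response genes rose after SNA in both housings.

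Class I molecules show peptides from inside the cell to CD8 T cells and are made by nearly all nucleated cells. Class II molecules show peptides from engulfed material to CD4 T cells and are made mainly by macrophages, dendritic cells and B cells. CIITA and NLRC5 bind no DNA themselves and act through factors assembled on a shared promoter module of class II and class I genes, and interferon-gamma raises both sets. In a whole ganglion, more cells of a type and more RNA per cell cannot be told apart.

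Promoter sequences are shown for H2-K1, the one gene of the 10 that was called, and for H2-D1, which varied with it across samples. Of the 10 genes, 6 matched the RefSeq table of promoters (GRCm38.p6). In the 250 bases before the start, both H2-K1 and H2-D1 held GGGATTCCC, a site of the NF-kB kind, and GAANNGAAA on the other strand, a site of the interferon response kind. The following stretches run from the first motif to the second, at chr17:34000429-34000457 on the minus strand for H2-K1 and at chr17:35262924-35262952 on the plus strand for H2-D1, with both motifs in capitals.
H2-K1: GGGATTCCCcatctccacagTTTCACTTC
H2-D1: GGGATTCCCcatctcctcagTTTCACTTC
The stretches start 110 and 170 bases before the respective start, and all 29 bases of the H2-D1 stretch lie in an annotated exon of a longer H2-D1 transcript. Counted from 1 at the 5′ end, the sole difference between them was A17T. Aligned over 177 columns of the promoters, 161 bases (91.0%) were identical. On either strand, GGGATTCCC was found in 0.301% and GAANNGAAA in 6.31% of all 32851 promoters of this length.

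The 120 bases before the start of H2-K1 (chr17:34000348-34000467, minus strand) also hold TGACG and, on the other strand, CCAAT, read here as ATTGG, the letters of the CREB and NF-Y sites of the shared module. Matches to the motifs are in capitals here and in the class II promoters of H2-Aa (chr17:34287824-34287943, minus strand) and H2-Eb1 (chr17:34305747-34305866, plus strand), which are shown because their genes varied together.
H2-K1: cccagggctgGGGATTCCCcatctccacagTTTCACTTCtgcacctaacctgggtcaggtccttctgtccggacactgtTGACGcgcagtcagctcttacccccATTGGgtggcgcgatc
H2-Aa: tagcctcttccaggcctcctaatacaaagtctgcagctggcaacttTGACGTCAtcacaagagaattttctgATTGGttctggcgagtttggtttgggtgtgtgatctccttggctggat
H2-Eb1: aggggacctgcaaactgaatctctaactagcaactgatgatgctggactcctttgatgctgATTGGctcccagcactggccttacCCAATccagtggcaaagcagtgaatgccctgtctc
H2-Aa holds TGACG on both strands in overlap, and H2-Eb1 holds CCAAT once on each strand, with no match to TGACG in this window. Of all promoters, CCAAT was found in 33.8% and TGACG in 17.8% on either strand. Neither GGGATTCCC nor GAANNGAAA matched in H2-Aa or H2-Eb1.

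Per gene length, the genes of the class I chains were the most abundant. Mean FPKM (reads scaled to gene length and library total) over the 12 samples was 242 for B2m, 71.2 for H2-D1 and 35.2 for H2-K1. It was 26.6 for Cd74, 16.2 for H2-Eb1, 12.2 for H2-Aa and 11.1 for H2-Ab1. The low end was held by Tap1 at 1.31 and by the transactivators Nlrc5 at 0.744 and Ciita at 0.352. This order held within each of the 12 samples, except that H2-Aa exceeded H2-Ab1 in 11 of 12. Ciita rests on 14 to 44 reads per sample, against 832 to 2336 for H2-K1. Between the lowest and the highest sample, library-scaled read counts (CPM) differed from 1.35-fold for B2m to 2.18-fold for Ciita. EE Sham replicate 1 was the lowest sample for 7 of the 10 genes, and EE + SNA replicate 3 the highest for 4.

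**Figure D1:**
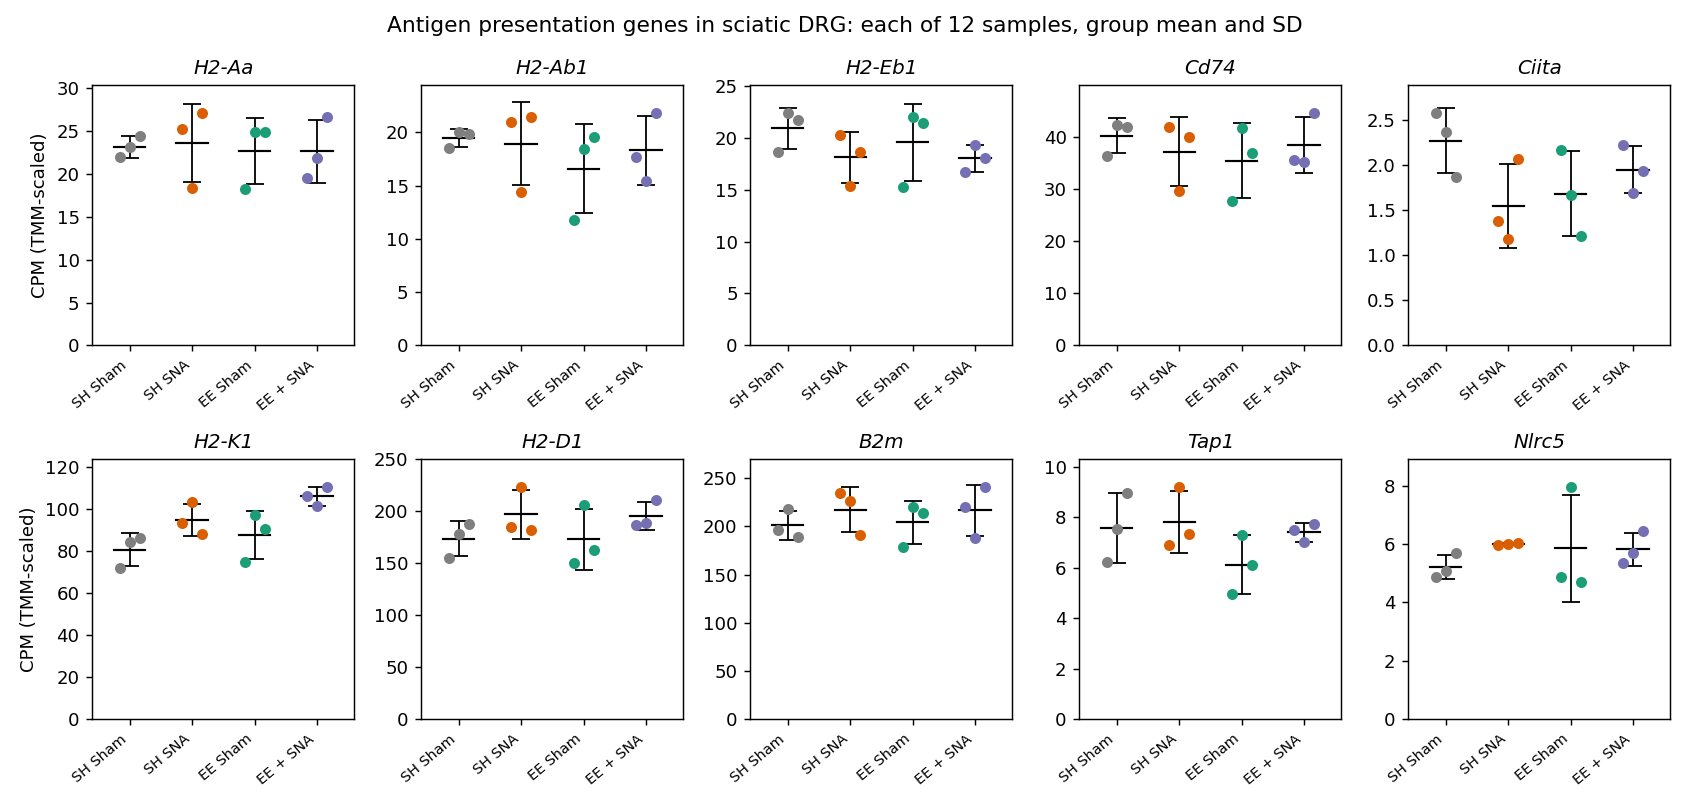
CPM (library-scaled read counts, linear axes from 0) of the 10 genes in each of the 12 samples. Points are samples, horizontal bars are group means and whiskers are 1 SD (n = 3). H2-K1 lies between 71.9 and 86.2 in SH Sham and between 102 and 111 in EE + SNA, whereas the 4 groups overlap for the class II genes.

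H2-K1 was the one gene of the 10 that passed the adjusted threshold in a comparison of groups. It presents peptides on most cell types and lies on chromosome 17 (33996017 to 34000347, minus strand, GRCm38). Its level was 71.9, 84.4 and 86.2 CPM in SH Sham and 93.6, 103 and 88.4 CPM in SH SNA. In EE Sham it was 75.1, 97.4 and 90.8 CPM, and in EE + SNA 106, 102 and 111 CPM. Every SNA sample was above every sham sample of the same housing, while SH SNA and EE + SNA overlapped. Relative to SH Sham, H2-K1 rose after EE + SNA, with a log2 fold change of 0.39 (standard error 0.075, 95% interval 0.23 to 0.55, adjusted P = 0.00489, edgeR quasi-likelihood test with Benjamini-Hochberg adjustment). It passed in all 15 alternatives of that comparison. The log2 fold change was 0.24 after SH SNA (0.07 to 0.41, adjusted P = 0.0731) and 0.12 after EE Sham (−0.09 to 0.33, adjusted P = 0.9999), which did not pass. Between EE + SNA and SH SNA directly it was 0.16 (0.01 to 0.31, edgeR adjusted P = 0.989), which did not pass either. With both housings in one fit, H2-K1 rose after SNA by 0.25 (standard error 0.063, edgeR adjusted P = 0.00697), and the call was lost without SH SNA replicate 2 and EE + SNA replicate 3 together (0.20, adjusted P = 0.0507). The surgery effect did not differ detectably between housings (interaction 0.04, 95% interval −0.24 to 0.31, edgeR adjusted P = 0.9999).

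These counts are to be read against all genes. After SH SNA, 0 of the 10 genes passed the adjusted threshold (11.2% of all genes tested) and 1 the unadjusted P-value of 0.05 used by the study (25.2% of all). After EE Sham, 0 passed at either threshold (0.00616% and 2.97% of all). After EE + SNA, 1 passed the adjusted and 2 the unadjusted threshold (12.5% and 27.2% of all). Between EE + SNA and EE Sham the numbers were 0 and 1 (4.83% and 20.6% of all), and between EE + SNA and SH SNA again 0 and 1 (0% and 4.10% of all). For SNA over both housings 1 and 2 passed (22.4% and 34.7% of all), and for the interaction 0 and 0 (0% and 2.61% of all). With 10 genes, counts of 0 and 1 lie near the background and say nothing particular about these genes. The median log2 fold change of the 10 was 0.04 after SH SNA and −0.03 after EE + SNA, against 0.00 over all genes in both.

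**Figure D2:**
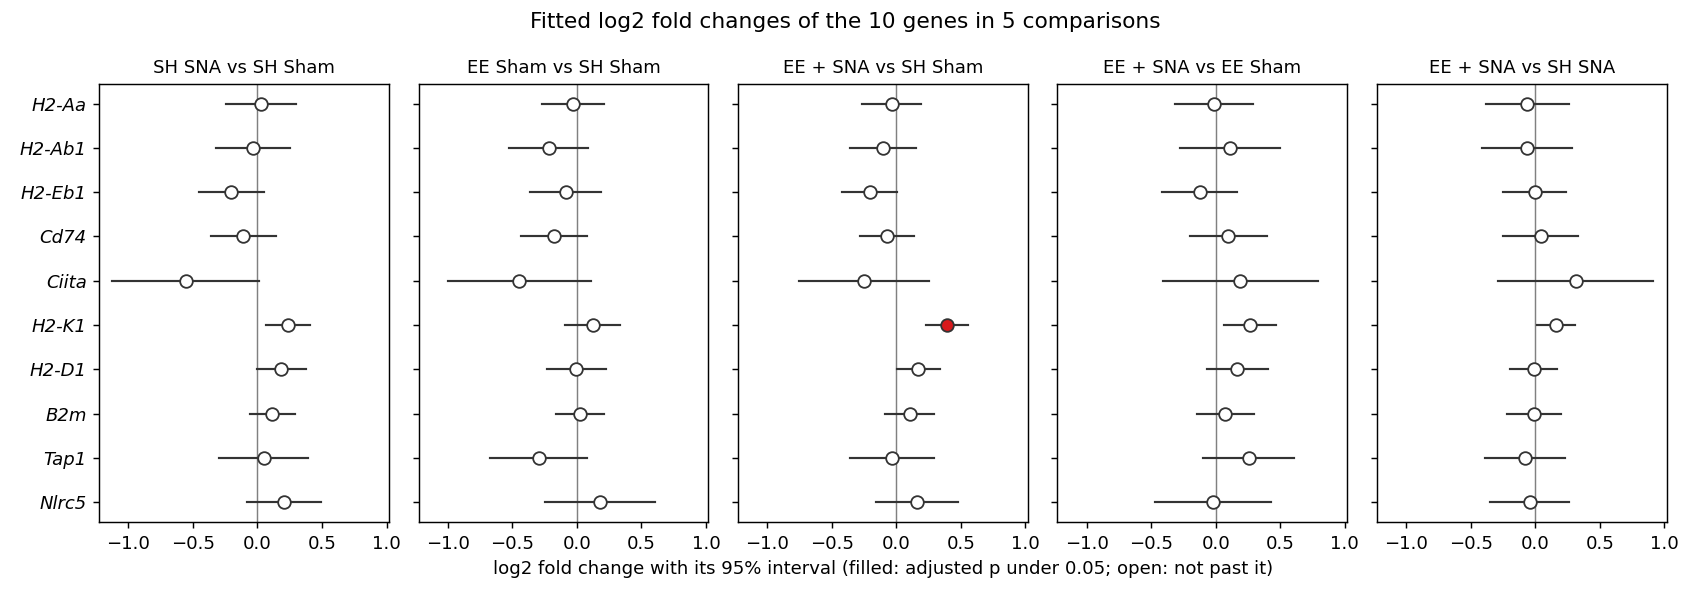
Fitted log2 fold change (points) of the 10 genes in 5 comparisons, with 95% intervals (lines). The filled point, H2-K1 in EE + SNA against SH Sham at 0.39, is the one past the adjusted threshold of 0.05, and the widest intervals are those of Ciita.

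With all samples, no other class I gene passed the adjusted threshold in any comparison. H2-D1, the second heavy chain gene (chromosome 17, 35262730 to 35267499, plus strand), was at 155, 178 and 188 CPM in SH Sham and at 185, 224 and 182 CPM in SH SNA. It was at 150, 206 and 163 CPM in EE Sham and at 186, 189 and 211 CPM in EE + SNA. The groups overlap, and EE Sham replicate 2 stands above the other 2 samples of its group. The log2 fold change was 0.18 after SH SNA (95% interval −0.01 to 0.37), 0.17 after EE + SNA (0.00 to 0.34) and 0.18 for SNA over both housings (0.02 to 0.33, edgeR adjusted P = 0.0923). Without EE Sham replicate 2 the last was 0.24 (adjusted P = 0.0132). Against EE Sham, leaving out the same sample put both H2-D1 (0.31, edgeR adjusted P = 0.0396) and H2-K1 (0.34, adjusted P = 0.0453) past the threshold after EE + SNA. With all samples these were 0.17 and 0.27 (edgeR adjusted P = 0.411 and 0.127).

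B2m, whose product pairs with every class I heavy chain, was at 196, 218 and 189 CPM in SH Sham, 235, 226 and 191 in SH SNA, 179, 220 and 214 in EE Sham and 220, 188 and 241 in EE + SNA. These ranges overlap throughout, and the log2 fold changes of 0.11 after SH SNA and 0.10 after EE + SNA had intervals of −0.06 to 0.29 and −0.09 to 0.29. Tap1, which carries peptides into the endoplasmic reticulum, was at 6.22, 7.53 and 8.96 CPM in SH Sham, 6.88, 9.21 and 7.32 in SH SNA, 4.96, 7.29 and 6.09 in EE Sham and 7.48, 7.01 and 7.74 in EE + SNA. Its log2 fold changes were 0.05, −0.30 and −0.04 for SH SNA, EE Sham and EE + SNA against SH Sham, with edgeR adjusted P-values of 0.894 to 0.9999. Nlrc5 was at 4.87, 5.09 and 5.68 CPM in SH Sham and at 5.96, 6.00 and 6.05 in SH SNA, without overlap. In EE Sham it was at 4.87, 7.97 and 4.71 CPM, where replicate 2 stands apart, and in EE + SNA at 5.34, 5.70 and 6.45. Its log2 fold change after SH SNA was 0.21 (−0.08 to 0.49, edgeR adjusted P = 0.371).

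The proportion of H2-K1 to H2-D1 is given as a description, with no test. The ratio of H2-K1 to H2-D1 CPM was 0.465, 0.473 and 0.459 in SH Sham and 0.571, 0.538 and 0.525 in EE + SNA, with no overlap. It was 0.506, 0.462 and 0.486 in SH SNA and 0.501, 0.474 and 0.557 in EE Sham. SH SNA overlapped with SH Sham, and EE Sham overlapped with EE + SNA. The lowest EE Sham sample, at 0.4738, barely exceeded the highest SH Sham sample, at 0.4731. The genes are close in sequence, and 0.957% of the 100-base windows of H2-K1 transcripts and 3.59% of those of H2-D1 occur in another gene. For 50-base windows the shares were 9.63% and 12.8%, so that a part of their reads is uncertain.

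**Figure D3:**
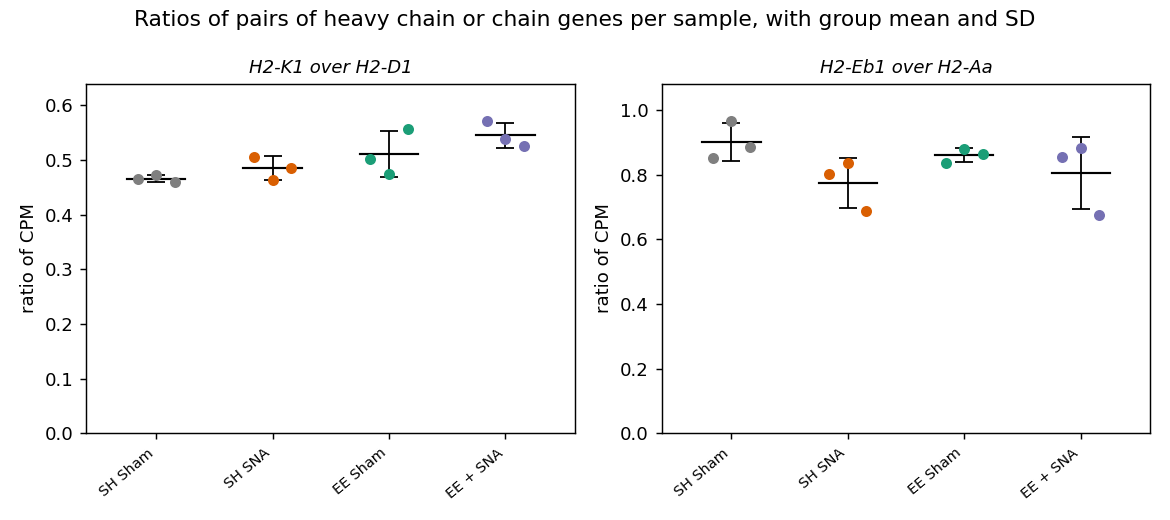
Ratio of H2-K1 to H2-D1 CPM and of H2-Eb1 to H2-Aa CPM in each sample (points), with group mean (bar) and 1 SD (whiskers, n = 3), on linear axes from 0. The H2-K1 to H2-D1 ratio lies between 0.459 and 0.473 in SH Sham and between 0.525 and 0.571 in EE + SNA.

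With all samples, no class II gene passed the adjusted threshold in any comparison, and their groups overlapped. H2-Aa, the alpha chain of I-A (chromosome 17, 34282744 to 34287823, minus strand), was at 21.9, 23.2 and 24.5 CPM in SH Sham, 25.2, 18.4 and 27.1 in SH SNA, 18.2, 24.9 and 24.9 in EE Sham and 19.5, 21.8 and 26.7 in EE + SNA. Its partner H2-Ab1 (34257689 to 34269419, plus strand) was at 18.5, 20.0 and 19.9 CPM in SH Sham, 21.0, 14.5 and 21.4 in SH SNA, 11.8, 18.4 and 19.6 in EE Sham and 17.7, 15.5 and 21.8 in EE + SNA. In both genes, SH SNA replicate 2 and EE Sham replicate 1 are the low samples of their groups. The log2 fold change of H2-Aa was 0.03 after SH SNA (95% interval −0.24 to 0.30) and −0.03 after EE + SNA (−0.26 to 0.19). That of H2-Ab1 was −0.03 (−0.32 to 0.25) and −0.10 (−0.36 to 0.15), and −0.22 after EE Sham (−0.53 to 0.09). The edgeR adjusted P-values of both genes were at least 0.629 in these 3 comparisons.

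Cd74 (chromosome 18, 60803848 to 60812652, plus strand), whose product guards the class II groove until it is cleaved, followed the same samples. It was at 36.4, 42.3 and 41.9 CPM in SH Sham, 41.8, 29.6 and 40.0 in SH SNA, 27.7, 41.7 and 36.8 in EE Sham and 35.5, 35.1 and 44.6 in EE + SNA. The log2 fold change was −0.11 after SH SNA (−0.36 to 0.14) and −0.07 after EE + SNA (−0.28 to 0.13). H2-Eb1, the beta chain of I-E (chromosome 17, 34305867 to 34316674, plus strand), was at 18.6, 22.4 and 21.7 CPM in SH Sham and 20.3, 15.4 and 18.6 in SH SNA. It was at 15.3, 21.9 and 21.4 CPM in EE Sham and 16.6, 19.3 and 18.1 in EE + SNA, so that the groups overlap. The log2 fold change of H2-Eb1 was −0.20 after SH SNA (−0.45 to 0.05), −0.21 after EE + SNA (−0.42 to 0.01) and −0.16 for SNA over both housings (edgeR adjusted P = 0.228). Without EE Sham replicate 1 the last was −0.24 (edgeR adjusted P = 0.0422), the one setting in which a class II gene passed. The ratio of H2-Eb1 to H2-Aa CPM was 0.850 to 0.966 in SH Sham and 0.686 to 0.835 in SH SNA, without overlap, but 0.837 to 0.881 in EE Sham and 0.677 to 0.882 in EE + SNA, which overlap. The partner of H2-Eb1 in I-E, listed as the pseudogene H2-Ea-ps, had 0 reads in all 12 samples.

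Ciita, the transactivator on which class II expression depends (chromosome 16, 10480059 to 10528418, plus strand), was at 2.58, 2.37 and 1.87 CPM in SH Sham and 1.38, 1.18 and 2.07 in SH SNA. It was at 2.17, 1.67 and 1.22 CPM in EE Sham and 2.22, 1.70 and 1.93 in EE + SNA. The groups overlap, and the intervals were the widest of the 10 genes. The log2 fold change of Ciita was −0.56 after SH SNA (−1.12 to 0.01, edgeR adjusted P = 0.21), −0.45 after EE Sham (−0.9996 to 0.11) and −0.25 after EE + SNA (−0.75 to 0.25). Of its 9535 annotated exon bases, 329 overlap Dexi on the other strand, and the strand setting of the counting is not given in the sources used here. The same holds for 212 exon bases of Tap1 that overlap Psmb9 and for 78 of Nlrc5 that overlap 9330175E14Rik.

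Across the 12 samples the chain genes of a class varied together, and B2m varied more with the class I heavy chains than with the class II genes. On log2 CPM, Pearson's r was 0.87 between H2-Aa and H2-Ab1, 0.93 between H2-Ab1 and Cd74 and 0.83 between H2-K1 and H2-D1, whereas it was 0.12 between H2-Aa and H2-K1. B2m had r of 0.63 with H2-K1, 0.59 with H2-D1, 0.39 with Tap1 and 0.38 with Nlrc5. With the class II genes, r of B2m was 0.46 for H2-Ab1, 0.41 for Cd74, 0.24 for H2-Aa and 0.12 for H2-Eb1. Ciita had r between −0.06 and 0.13 with the 4 class II genes it regulates, at the low counts given above. Nlrc5 had r of 0.77 with H2-D1 and 0.55 with H2-K1, and Tap1 0.83 with H2-D1. The points share library and group differences, and r describes these 12 samples only. Of 15334 genes of at least 1 CPM, the 6 most like the class II genes were Tsc22d3, Ddah2, Hscb, Mxd4, Cnpy4 and Prom1, with a mean r of 0.76 to 0.82. The 6 most like H2-K1, H2-D1, B2m and Tap1 were Ift43, Thsd1, Ndrg2, Ptp4a3, Rpl35 and Rpl13, with a mean r of 0.78 to 0.82.

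Some transcripts of macrophages, which can make class II, rose after SNA. Of 13 macrophage marker genes, 4 rose after SH SNA, 5 after EE + SNA and 8 in the fit over both housings (11.2%, 12.5% and 22.4% of all genes passed in either direction), and 0 fell at the adjusted threshold of edgeR's quasi-likelihood test. In both comparisons 12 of the 13 log2 fold changes were positive and 1 negative. Among the risen genes, C1qc, a complement subunit, rose by 0.39 on the log2 scale after SH SNA (15.2, 12.6 and 13.6 CPM) and after EE + SNA (13.7, 12.9 and 15.2 CPM), and no SH Sham sample reached these values. Other markers overlapped with SH Sham. Emr1 was at 3.93, 4.59 and 3.68 CPM in SH Sham and 3.56, 2.96 and 5.08 in EE + SNA. Aif1 was at 1.94, 1.65 and 2.07 CPM in SH Sham and 1.42, 2.13 and 2.10 in EE + SNA. The summed CPM of the 13 genes ranged from 153 to 165 in SH Sham, 174 to 238 in SH SNA, 144 to 181 in EE Sham and 191 to 311 in EE + SNA. Lyz2 was the largest part of this sum, from 56.6 CPM in EE Sham replicate 1 to 153 CPM in EE + SNA replicate 3. The summed CPM of H2-Aa, H2-Ab1, H2-Eb1 and Cd74 ranged from 95.5 to 108 in SH Sham, 77.8 to 108 in SH SNA, 73.0 to 107 in EE Sham and 89.3 to 111 in EE + SNA. The ratio of the class II sum to the macrophage sum was 0.624, 0.653 and 0.694 in SH Sham and 0.455, 0.447 and 0.484 in SH SNA. It was 0.508, 0.592 and 0.653 in EE Sham and 0.451, 0.480 and 0.358 in EE + SNA. In both housings every SNA sample lay below every sham sample. EE + SNA replicate 3, the lowest ratio, also held the highest macrophage sum and the highest sum of neutrophil and monocyte genes (632 CPM, against 69.3 to 280 CPM in the other 11 samples). SH SNA replicate 2, low in class II, held the highest sum of skeletal muscle genes (933 CPM, against 3.70 to 162 in the other 11). Fits without these samples are among the alternatives described below. The part of muscle, neutrophil and monocyte transcripts in the class II values was not tested.

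**Figure D4:**
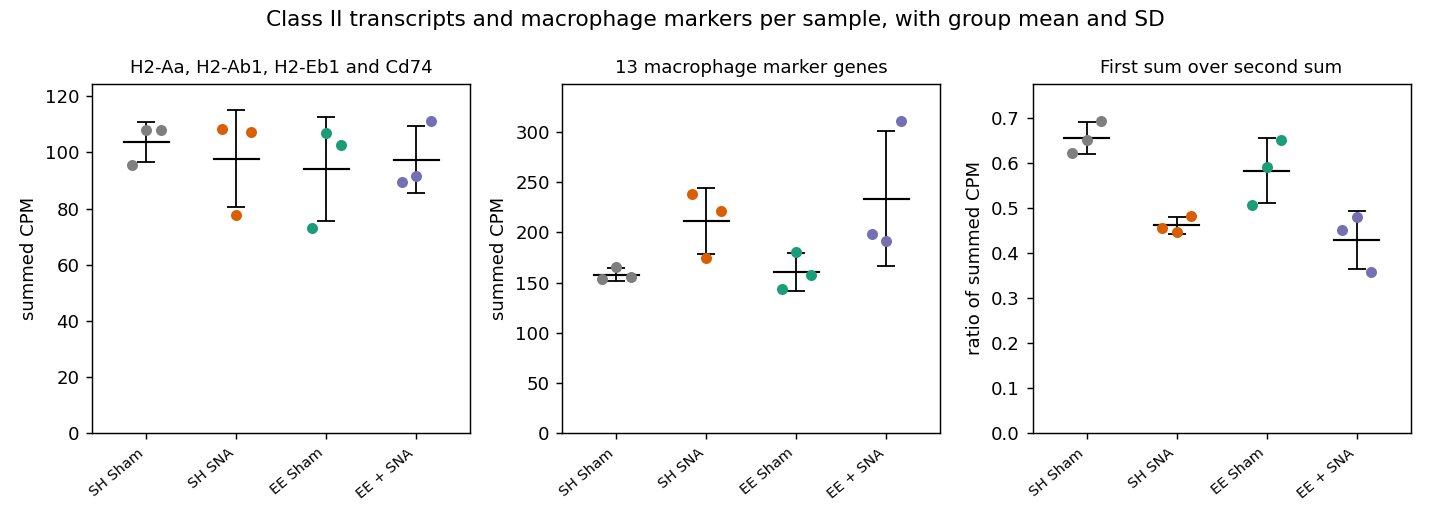
Summed CPM of H2-Aa, H2-Ab1, H2-Eb1 and Cd74, summed CPM of 13 macrophage marker genes, and the ratio of the first sum to the second, in each sample (points) with group mean (bar) and 1 SD (whiskers, n = 3). The class II sums overlap between all 4 groups, and the ratio is 0.624 to 0.694 in SH Sham and 0.447 to 0.484 in SH SNA.

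Of the other cells that carry class II, 7 of 10 dendritic cell markers and 5 of 6 B cell markers were tested. After EE + SNA, 1 of each rose past edgeR's adjusted threshold, and after SH SNA 1 and 0, where 12.5% and 11.2% of all genes passed. After EE + SNA all 5 B cell markers had positive log2 fold changes (median 1.21). Of these, 4 passed edgeR's unadjusted threshold of 0.05 (27.2% of all genes). The dendritic cell markers were 5 positive and 2 negative (median 0.40), with 1 past the unadjusted threshold. After SH SNA the B cell markers were 4 positive and 1 negative, with 0 past it. B cell markers summed to 40.5 to 49.3 CPM in SH Sham, 44.9 to 50.1 in SH SNA, 44.7 to 51.9 in EE Sham and 52.2 to 66.7 in EE + SNA, and most of the sum was Ighm (37.6 to 54.6 CPM over the 12 samples). Of 11 T and NK cell markers, 1 passed the filter on low counts, and their sum ranged from 3.63 to 6.93 CPM over the 12 samples. Ifng, the gene of interferon-gamma, had 0 or 1 read per sample.

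Of 67 further genes of antigen presentation in the table, 57 were tested. After SH SNA, 4 rose and 1 fell (edgeR adjusted P under 0.05), after EE + SNA 7 rose and 0 fell, where 11.2% and 12.5% of all genes passed, so that these counts lie near the background. After EE Sham and between EE + SNA and SH SNA 0 changed (0.00616% and 0% of all genes passed). Between EE + SNA and EE Sham 2 rose and 0 fell (4.83% of all). For SNA over both housings 6 rose and 1 fell (22.4% of all), and the interaction gave 0 (0% of all). The median log2 fold change of the 57 genes was 0.06 after SH SNA and after EE + SNA. None of the 13 genes of peptide supply and loading for class I passed in any of these comparisons, among them the immunoproteasome subunits Psmb8, Psmb9 and Psmb10.

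Of the accessory genes of class II, Ctss and Ctsl passed. Ctss, a protease that cleaves the invariant chain, rose by 0.50 after SH SNA (edgeR adjusted P = 0.0329), a call that held in 8 of 15 alternatives and was lost without SH Sham replicate 1 or 3 or SH SNA replicate 1 (adjusted P = 0.107 to 0.140) and, among other settings, with the replicate block (0.0673). Over both housings Ctss rose by 0.45 (edgeR adjusted P = 0.0183), a call lost without SH SNA replicate 1 (0.0568) or EE + SNA replicate 3 (0.0514). Ctsl, a related lysosomal protease of many cell types, was at 823, 877 and 913 CPM in SH Sham and 1014, 1074 and 1090 CPM in EE + SNA and rose by 0.28 (edgeR adjusted P = 0.00961), a call lost in 2 of 15 alternatives, both with limma on FPKM (0.0511 and 0.0514). Among class I-like genes, H2-T23, which presents leader peptides of class I chains to NK cell receptors, rose by 0.50 after EE + SNA (edgeR adjusted P = 0.00922), a call lost with all 12 samples in one fit (0.0994).

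Among the regulators, Nfyb and Socs3 rose in both SNA groups. Nfyb, a subunit of the CCAAT-binding factor NF-Y, was at 28.1, 27.5 and 25.8 CPM in SH Sham, 33.3, 35.7 and 34.6 in SH SNA, 28.0, 27.2 and 28.8 in EE Sham and 37.1, 33.6 and 35.7 in EE + SNA. All SNA samples lay above all sham samples. It rose on the log2 scale by 0.35 after SH SNA (edgeR adjusted P = 0.0103), 0.38 after EE + SNA (0.00566) and 0.33 against EE Sham (0.0282). The last call held in 7 of 15 alternatives and was lost without EE Sham replicate 1, 2 or 3 or EE + SNA replicate 1 or 3 (adjusted P = 0.0538 to 0.126). Socs3, an inhibitor of cytokine receptor signalling, rose by 0.47 after SH SNA (edgeR adjusted P = 0.0161) and 0.46 after EE + SNA (0.00528), and by 0.48 against EE Sham (0.00452). The first was lost without SH Sham replicate 1 (0.0737) or SH SNA replicate 3 (0.0681) and with limma on log2 of FPKM plus 1 (0.0503).

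Creb1, whose product binds TGACG, rose by 0.32 after SH SNA and 0.25 after EE + SNA (edgeR adjusted P = 0.0313 and 0.0406). These calls held in 9 and 6 of 15 alternatives. The first was lost without SH Sham replicate 1, 2 or 3 or SH SNA replicate 1 (0.0560 to 0.132), and the second without any 1 of 5 of its 6 samples (0.0528 to 0.171). Jak2, a kinase of the interferon-gamma receptor, rose by 0.25 after EE + SNA (edgeR adjusted P = 0.0243), and Irf8, a factor of myeloid cells, by 0.76 (0.0434). Jak2 passed in 6 of 15 alternatives and lost the call without any 1 of 5 samples (0.0544 to 0.0971). Irf8 passed in 4 of 15, lost the call without any 1 of its 6 samples (0.0524 to 0.142) and was at 0.18 with limma on log2 of FPKM plus 1 (0.108). Cd83, which stabilises class II at the cell surface, fell by 0.76 after SH SNA (edgeR adjusted P = 0.0438), a call that held in 9 of 15 alternatives and was lost without SH Sham replicate 1 or 3 or SH SNA replicate 1 or 3 (0.0839 to 0.165).

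**Figure D5:**
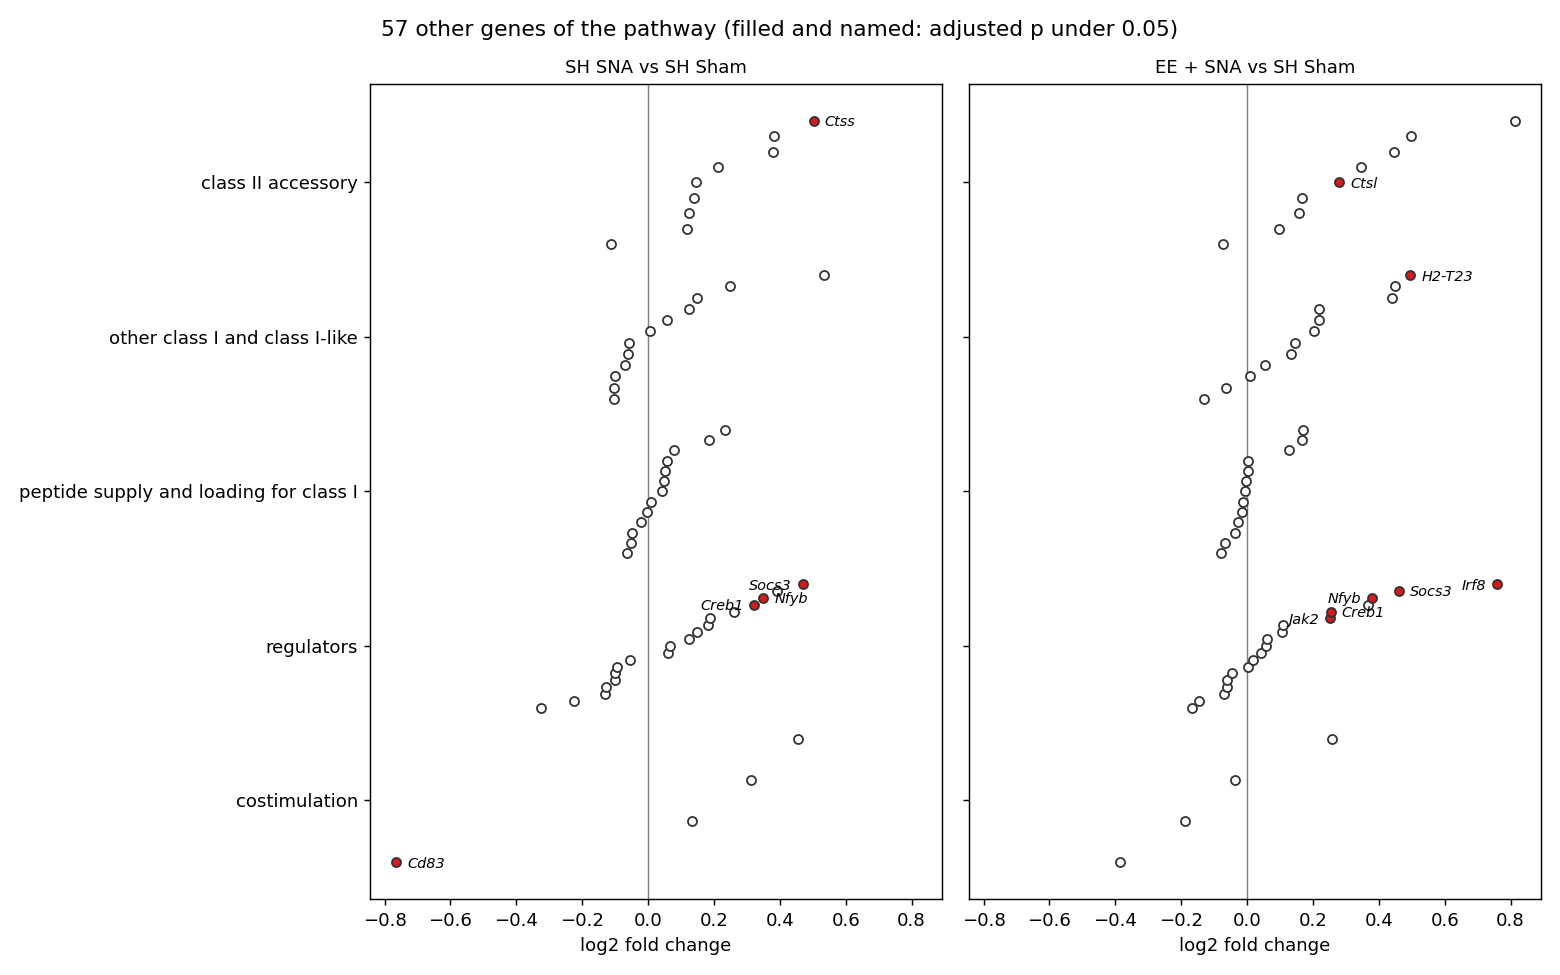
Log2 fold change of 57 further genes of antigen presentation after SH SNA and after EE + SNA against SH Sham, in 5 lists and ordered by value within each. Filled, named points passed the adjusted threshold of 0.05, which were 5 genes after SH SNA and 7 after EE + SNA, and none was a gene of peptide supply.

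In the comparisons in which none of the 57 passed, the smallest unadjusted P-values belonged to the following genes. For EE Sham these were Calr (−0.16), Cd86 (−0.57), Creb1 (0.13), Cd83 (−0.31) and Psme1 (−0.16), with log2 fold changes in brackets. For EE + SNA against SH SNA they were H2-Q7 (0.55), Nfya (−0.24), H2-T23 (0.25), Irf1 (0.21) and Nfyc (0.23). For the interaction they were Cd83 (0.69), Creb1 (−0.19), Nfyc (0.22), March1 (0.48) and H2-DMb1 (0.39). The edgeR adjusted P-values of these 15 values were 0.989 to 0.9999.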

How the data were processed

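The authors aligned paired-end TruSeq mRNA reads of 12 samples to mm10 and deposited unnormalized read counts per gene name (HTSeq). They also deposited FPKM, scaled by gene length and library total. The submitters' processing notes name TopHat2 2.0.12 and HTSeq 0.6.0. The 5 HTSeq summary lines were left out. Among them, 46.7% to 47.6% of reads had no gene, 8.49% to 9.28% were not aligned uniquely and 0.314% to 0.370% were ambiguous.

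Counts were scaled by TMM and filtered with filterByExpr in edgeR 4.0.16 under R 4.3.3 (16238 genes), and CPM are on that scale. A comparison of any pair of groups used edgeR's two-sided quasi-likelihood test on those 6 samples. The pooled surgery effect, with housing as covariate, and the interaction used all 12 samples. P-values were adjusted by Benjamini-Hochberg over all genes tested and called at 0.05. The scripts were tested on simulated counts. With 3 against 3, an exact permutation test cannot go below 0.1.

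Genes were placed on GRCm38 with GENCODE. All 10 genes were named in every comparison, with further pathway genes past the threshold (at most 6 per list, or the 5 smallest P-values). A result that this rule names is not reported here. The genes and lists were chosen with earlier results of these data known.

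Replicate numbers were checked by correlating deviations from group means. For EE Sham and SH Sham, r of like numbers was 0.333, 0.132 and 0.125, but EE Sham replicate 2 with SH Sham replicate 3 reached 0.197. For EE + SNA and SH SNA it was 0.0529, 0.117 and 0.123, against at most 0.0396 for unlike numbers. These values do not settle whether the numbers mark pairs, and the main tests used no pairing. Alternatives were the likelihood ratio test, DESeq2 1.42.0, library-size scaling, no filter, at least 10 counts in every sample, all samples in one fit, a replicate block, limma 3.58.1 on log2 of FPKM plus 1 or 0.1, and each sample left out. Figures were drawn with Matplotlib 3.10.9.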

Additional observations from a re-analysis of the deposited data

Results flagged for a closer look

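The surgery effect on Ciita had opposite signs in the 2 housings, with both intervals including 0. Every SH SNA sample was below the SH Sham mean and every EE + SNA sample was above the mean of EE Sham. The lowest EE + SNA sample, at 1.697 CPM, barely exceeded that mean of 1.685 CPM. The log2 fold changes were −0.56 (95% interval −1.12 to 0.01) and 0.19 (−0.41 to 0.79). Against SH Sham, EE + SNA was also lower (−0.25). The difference of the effects, EE minus SH, was 0.75 (95% interval −0.05 to 1.56) and did not pass edgeR's interaction test (unadjusted P = 0.0643, adjusted P = 0.9999).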

How the results depend on the processing

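Of 1180 values of the 10 genes under alternatives, 1171 kept their call, 8 passed the threshold newly, 1 no longer passed and 0 called values changed sign. Uncalled values changed sign 108 times. The number of the 10 genes past the adjusted threshold, reported as 0 after SH SNA, 0 for EE + SNA against EE Sham and 1 for SNA over both housings, was 1, 1 and 2 without the filter on low counts. Over both housings it was 2 with the replicate block, which added H2-D1 (adjusted P = 0.0343) and changed no other count of these genes, and 0 without SH SNA replicate 2 and EE + SNA replicate 3 together, an alternative chosen after seeing the data. With 1 sample left out, it ranged from 0 to 2 for EE + SNA against EE Sham and from 1 to 2 over both housings. The cause was not tested. The single call of H2-K1 after EE + SNA had adjusted P-values of 9.56e-06 to 0.0265. Between the filters, 14736 to 26122 genes were tested. At 3 samples a group, changes of the size of most intervals given here cannot be told from none, and Ciita, at 14 to 44 reads a sample, is the least certain.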
